A study of Mus musculus with 6 samples.

Results

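The genes for the factors that start, elongate and end protein synthesis were described in 4T1 cells, a mouse mammary carcinoma line, after exposure to P3FI-90, an inhibitor of the histone demethylase KDM3B. Members were taken by gene symbol, namely the numbered eukaryotic initiation factors (Eif1 to Eif6) and elongation factors (Eef1 and Eef2) with Etf1, Gspt1, Pabpc1, Pabpc4, Denr and Mcts1, while the eIF2α kinases and Eef1e1 were left out. This gave 88 of the 22116 named rows of the table, of which 66 passed the filter on low counts. The comparison was between 3 RNA-seq libraries of cells given the solvent DMSO and 3 libraries of cells given 10 µM P3FI-90, all harvested after 24 h from the same parental line, with no genetic change labelled. The labels do not say whether the libraries of a group came from separate cultures, so the errors below measure the spread between these libraries.

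During initiation the cap-binding complex eIF4F (eIF4E, the scaffold eIF4G and the helicase eIF4A) recruits the small ribosomal subunit, to which eIF2 has brought the initiator tRNA and which eIF3, eIF1 and eIF1A hold in a state that scans for the start codon. The exchange factor eIF2B recharges eIF2 with GTP, and its inhibition by phosphorylated eIF2α is the central step of the integrated stress response. In elongation eEF1A delivers aminoacyl-tRNAs and eEF2 moves the ribosome along, and eRF1 with eRF3 releases the finished chain at the stop codon. Many of these mRNAs, those of the elongation factors and PABPC1 among them, are known to be controlled in their own translation by mTORC1. The counts below measure the amount of mRNA, not protein synthesis.

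The promoters of 5 members are shown because they include those of the members with the largest losses of counts (Eef1a1, Eef2 and Eif4a1), of the scaffold Eif4g1 and of Eif1, the member with the largest rise, and because the E-box CACGTG, to which MYC with MAX and related factors bind, recurred among the members. Each line gives the 200 bases before the transcript start from RefSeq on GRCm38.p6, 5′ to 3′ on the gene's own strand, with every E-box in capitals.
Eif4a1 (chr11:69672424-69672623, minus strand): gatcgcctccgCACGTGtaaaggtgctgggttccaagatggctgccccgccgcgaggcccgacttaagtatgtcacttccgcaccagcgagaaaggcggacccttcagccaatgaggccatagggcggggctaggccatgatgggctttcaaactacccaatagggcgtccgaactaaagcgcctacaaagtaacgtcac
Eef2 (chr10:81176431-81176630, plus strand): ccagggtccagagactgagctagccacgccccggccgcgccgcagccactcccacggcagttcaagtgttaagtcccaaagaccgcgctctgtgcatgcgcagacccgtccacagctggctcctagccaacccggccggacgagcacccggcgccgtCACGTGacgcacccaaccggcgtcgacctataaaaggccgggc
Eif4g1 (chr16:20672527-20672726, plus strand): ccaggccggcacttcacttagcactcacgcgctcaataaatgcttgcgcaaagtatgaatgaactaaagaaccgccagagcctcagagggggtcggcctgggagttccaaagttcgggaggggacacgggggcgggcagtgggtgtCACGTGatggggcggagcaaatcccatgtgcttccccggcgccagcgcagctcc
Eef1a1 (chr9:78481725-78481924, minus strand): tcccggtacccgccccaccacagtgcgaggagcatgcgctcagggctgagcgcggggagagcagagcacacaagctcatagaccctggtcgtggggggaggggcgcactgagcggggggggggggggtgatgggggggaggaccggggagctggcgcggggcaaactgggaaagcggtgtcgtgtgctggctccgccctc
Eif1 (chr11:100319749-100319948, plus strand): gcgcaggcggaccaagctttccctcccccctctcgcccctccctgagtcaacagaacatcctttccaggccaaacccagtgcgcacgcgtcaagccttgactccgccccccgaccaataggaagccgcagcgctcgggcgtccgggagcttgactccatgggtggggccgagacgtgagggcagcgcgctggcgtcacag
The E-box letters occurred once in the windows of Eif4a1, Eef2 and Eif4g1 and were not present in those of Eef1a1 and Eif1. In windows from 250 bases before to 50 bases after the start, an E-box was found in 13 of the 50 tested members that had a promoter entry, against 8.09% of 27025 genes and 7.15% of 32851 promoters of the same length. By direction, these were 10 of 34 members that were lower after P3FI-90, 2 of 11 that were higher and 1 of 5 that were neither. The E-box was 1 of 7 motifs searched on both strands, and no match overlapped that of another motif. The amino acid response element TGATGNAAT was found in 0 of 50 members and 1.08% of genes, the consensus heat shock element in 0 of 50 and 0.662%, and the cyclic AMP element TGACGTCA in 1 of 50 (Eef2) and 2.03%. ETS letters CCGGAAGT were found in 8 of 50 members and 4.31% of genes, TATAAA in 5 of 50 and 15.7%, and the palindromic NRF1 consensus in 1 of 50 and 1.07%. The members had passed the filter on low counts, while the shares over genes and promoters include genes that did not pass it. A share over the genes tested was not measured. These matches describe letters in a window and show no binding.

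Library totals on named genes ranged from 31327094 to 37395732 reads, and TMM scaling factors were 0.927 to 0.930 in the DMSO libraries and 1.08 in each P3FI-90 library. Values below are normalized counts, that is, counts scaled to a common effective library size, unless another scale is named. Kdm3b itself, whose enzyme the compound inhibits, stood at 2791, 2924 and 2839 in DMSO and at 3049, 3160 and 3119 in P3FI-90 (log2 fold change 0.13, SE 0.044). Of the marker lists, the summed level of 5 epithelial markers was 107333 to 113009 in DMSO and 54126 to 56741 in P3FI-90, and none of the 5 was at 0. The 5 fibroblast markers summed to 1335 to 1377 and to 910 to 1021, with Lum and Col6a3 at 0 in all libraries. Nearly all of it was Pdgfra (1365, 1366 and 1335 against 910, 944 and 1021). Dcn had at most 3 counts in a library, and Pdgfrb had 9 in the first DMSO library and 0 in the others. The 6 leukocyte markers summed to 30.6 to 63.8 and to 135 to 141. Most of that sum was Csf1r, which was higher in P3FI-90 (34.4, 62.6 and 27.6 against 107, 132 and 125, log2 1.56, SE 0.29), while Adgre1 was at 0 in all libraries. The 4 endothelial markers summed to 0 to 13.3 and to 21.6 to 33.7. The share of counts on mitochondrially encoded genes was 3.53% to 3.75% in DMSO and 2.77% to 2.85% in P3FI-90. The part of these shifts in the values of the translation factors was not tested, and in such bulk RNA fewer cells of a kind and less RNA per cell cannot be told apart.

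The translation factors took up a smaller part of the transcriptome after P3FI-90. The 88 members held 3.88%, 3.85% and 3.84% of the counts on named genes in the DMSO libraries and 2.61%, 2.65% and 2.58% in the P3FI-90 libraries, so the groups did not overlap. Eef1a1 alone held 1.24% to 1.25% in DMSO and 0.478% to 0.504% in P3FI-90. Without Eef1a1 the share was still lower, at 2.60% to 2.63% in DMSO and 2.10% to 2.15% in P3FI-90. Within the counts of the members, Eef1a1 made up 32.2% to 32.4% in DMSO and 18.5% to 19.0% in P3FI-90.

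**Figure D1:**
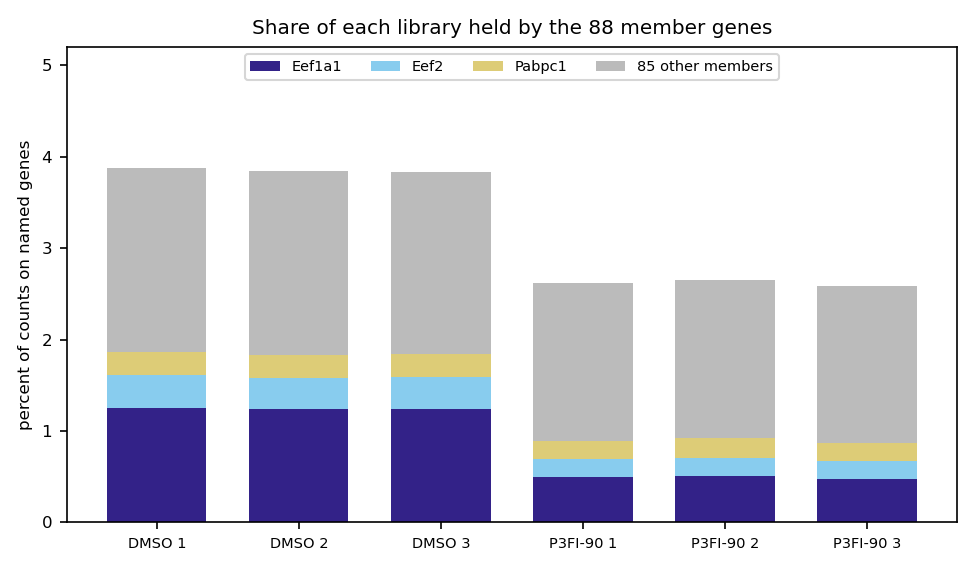
Share of each library's counts on named genes, in percent, held by Eef1a1, Eef2, Pabpc1 and the 85 other members in 3 DMSO and 3 P3FI-90 libraries. The bars reach 3.84% to 3.88% in DMSO and 2.58% to 2.65% in P3FI-90, and the segments of Eef1a1 and Eef2 are shorter in every P3FI-90 library.

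Of the 66 members tested, 13 were higher and 46 lower after P3FI-90 and 7 were neither at an adjusted p under 0.05 (edgeR's quasi-likelihood test, Benjamini-Hochberg over all 12288 genes tested). This stands beside 79.3% of all genes called in either direction, 39.9% higher and 39.4% lower, and it is given as a description, since the group was chosen with earlier results of this contrast known. The median log2 fold change of the 66 members was −0.51, with a range of −2.23 to 0.98, beside a median of 0.01 over all genes tested. In 59 of 66 members the 3 libraries of the groups did not overlap, as in 81.2% of all genes. Lack of overlap, given for single genes below, was thus a trait of most genes. Called with an absolute log2 fold change above 0.5 were 38 members, beside 50.9% of all genes. More than 2-fold lower were 10 members, beside 10.6% of all genes, and more than 2-fold higher were 0 members, beside 12.7% of all genes. The members' log2 fold changes showed a Spearman correlation of −0.023 with exon length and of −0.21 with the level per length in DMSO over 66 genes measured in the same libraries. With scaling by total counts alone, the median over all genes was 0.23 and that of the members −0.29, and 17 members were higher and 38 lower, beside 6179 genes higher and 3641 lower over the whole table, where TMM gave 4908 and 4841.

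**Figure D2:**
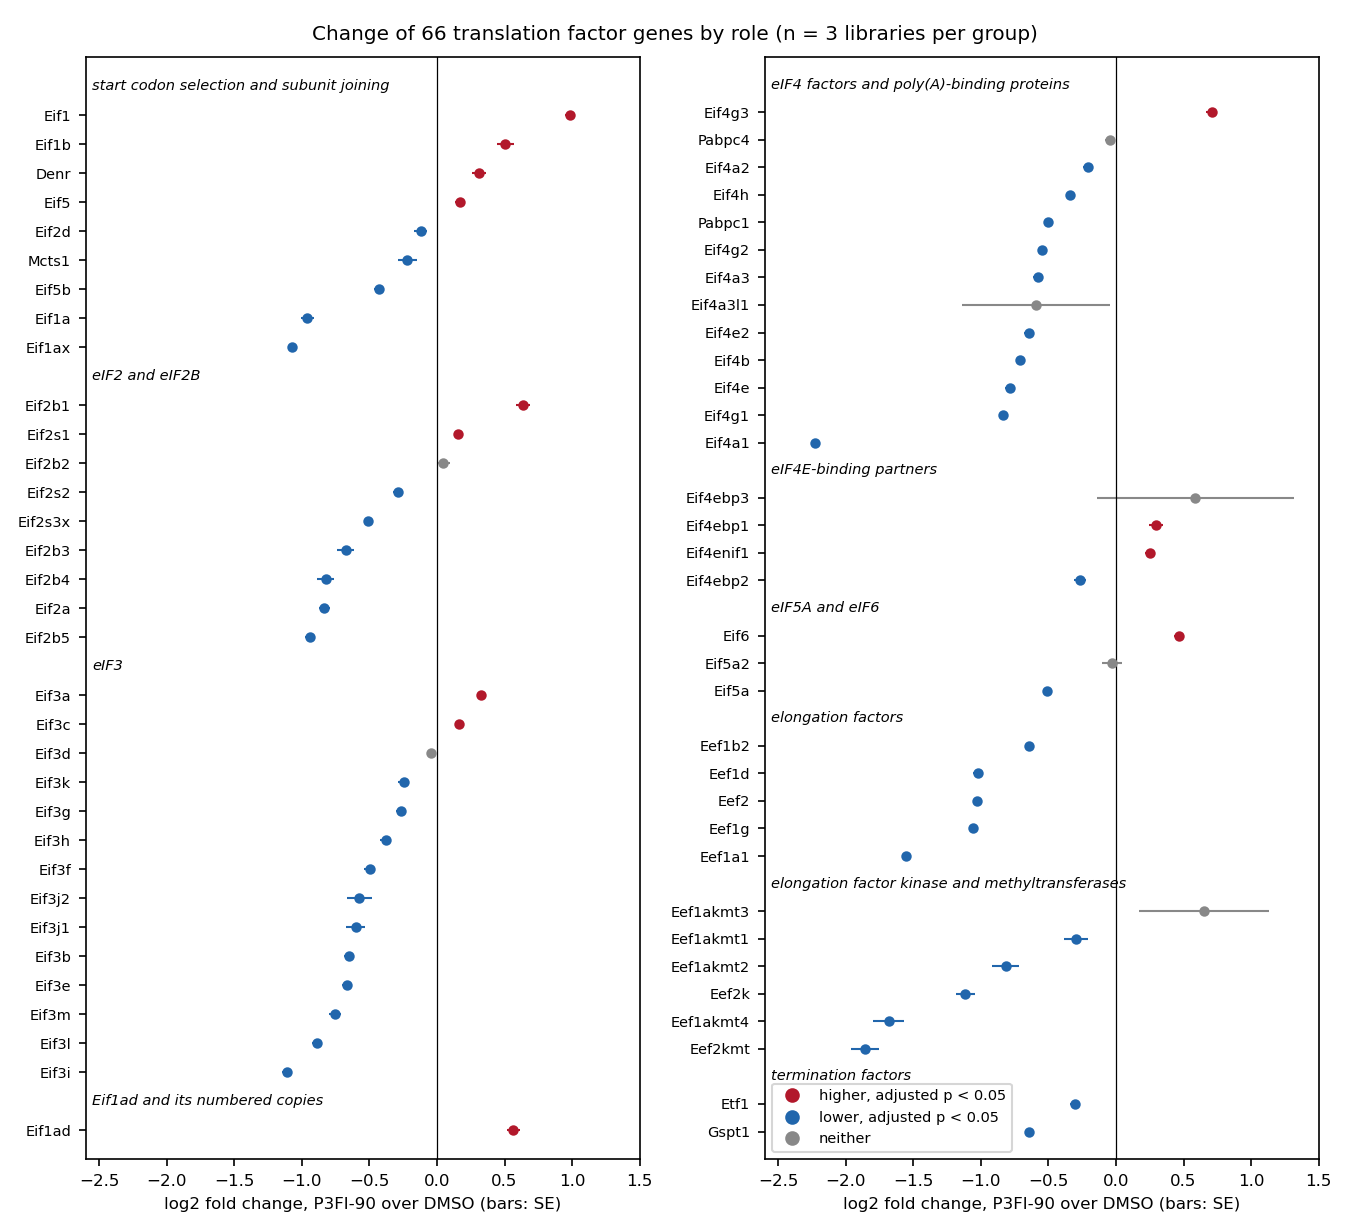
Log2 fold change (x axis) of the 66 tested members, grouped by role, P3FI-90 over DMSO, with 3 libraries per group. Points are edgeR estimates and bars their SE, coloured by call. Most points lie left of 0, Eif4a1 is farthest left at −2.23, and Eif1 is farthest right at 0.98.

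Among the factors of start codon selection and subunit joining, 4 of 9 rose (44.4%) and 5 fell (55.6%), beside 39.9% of all genes higher and 39.4% lower. The genes for eIF1 and eIF1A, which hold the scanning ribosome open together, moved in opposite directions. Eif1, which guards against wrong start codons, was at 18205, 19364 and 19707 in DMSO and at 38771, 37405 and 36984 in P3FI-90, a 1.98-fold rise (log2 0.98, SE 0.034). It was the largest rise among the members that were called, and every treated library lay above every control. Eif1ax, a gene for eIF1A, was at 10602, 10982 and 10382 in DMSO and at 5169, 5111 and 4944 in P3FI-90, which was 2.10-fold lower (log2 −1.07, SE 0.036). Its autosomal relative Eif1a fell from 6333, 6883 and 6287 to 3331, 3161 and 3534 (log2 −0.96, SE 0.048). The lower values of both eIF1A genes were all from the P3FI-90 libraries. The ratio of Eif1ax to Eif1 counts was 0.527 to 0.582 in DMSO and 0.133 to 0.137 in P3FI-90, 4.15-fold lower. This pair and those below were chosen with earlier results known, and such ratios restate the changes of the single genes.

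Eif5, whose product makes eIF2 hydrolyse its GTP when the start codon is found, rose by a small amount, from 19845, 20669 and 20285 to 22828, 21717 and 23894 (log2 0.17, SE 0.036). Eif1b, the paralog of Eif1, rose from 1183, 1126 and 1058 to 1616, 1687 and 1480 (log2 0.51, SE 0.065). The groups of both genes did not overlap. Since Eif1 rose more than Eif5, their count ratio went from 0.917 to 0.971 in DMSO up to 1.55 to 1.72 in P3FI-90. Eif5b, the GTPase that joins the ribosomal subunits, fell by 0.43 on the log2 scale. Of the genes for recycling and reinitiation, Denr rose by 0.31 on the log2 scale, while its partner Mcts1 fell by 0.22 and Eif2d fell by 0.12, although neither of the latter 2 was called with scaling by total counts, where Mcts1 was at −0.0042 and Eif2d at 0.095. The call of Mcts1 was also lost without the third DMSO library (log2 −0.15). For Eif5b, 14.3% of the 50-base windows of its transcripts also occur in other genes of the table, since its exons overlap those of Rev1 on the opposite strand. Without stated strandedness the reads of such partners cannot be told apart. Of the windows of Eif1, 19.2% also occur in other annotated genes and 9.66% in other genes of the table. Where reads from this shared sequence were placed is not known, which limits the counts of Eif1 given above.

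The genes of eIF2 and its exchange factor eIF2B did not move as units. Of 9 tested, 2 rose (22.2%), 6 fell (66.7%) and 1 was neither, beside 39.9% of all genes higher and 39.4% lower. Eif2s1, the α subunit that stress kinases phosphorylate, was at 11785, 12072 and 11959 in DMSO and at 13221, 13373 and 13401 in P3FI-90 (log2 0.16, SE 0.030), a small rise without overlap. The β subunit gene Eif2s2 fell by 0.29 and the γ subunit gene Eif2s3x by 0.51 on the log2 scale, but with scaling by total counts Eif2s2 was at −0.075 and not called. Counts of Eif2s3x were 1.42 to 1.47 times those of Eif2s1 in DMSO and 0.897 to 0.930 times in P3FI-90. Eif2a, which despite its symbol encodes a separate initiator-tRNA-binding protein and no subunit of eIF2, fell from 5935, 5797 and 5547 to 3286, 3171 and 3240 (log2 −0.83, SE 0.038).

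Within eIF2B, the regulatory α subunit and the catalytic ε subunit moved apart. Eif2b1, the gene for α, rose from 2055, 1958 and 1907 to 3138, 3066 and 3002 (log2 0.64, SE 0.049). Eif2b5, the gene for ε, fell from 5760, 5707 and 6037 to 3025, 3066 and 3029 (log2 −0.94, SE 0.037). The ratio of Eif2b5 to Eif2b1 counts, which no scaling of libraries can alter, was 2.80 to 3.16 in DMSO and 0.964 to 1.01 in P3FI-90, 2.99-fold lower. Eif2b4 fell by 0.82 and Eif2b3 by 0.67 on the log2 scale, and Eif2b2 was neither, at 1971, 1921 and 1961 against 1999, 2110 and 1940 (log2 0.05, SE 0.050), although with scaling by total counts it was called higher at 0.26. Eif2b2 thus had overlapping groups, and the other 4 subunit genes did not.

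For eIF3, the large scaffold that binds the small ribosomal subunit, 2 of 14 subunit genes rose, 11 fell and 1 was neither, with a median log2 fold change of −0.54, beside 39.9% of all genes higher and 39.4% lower. With scaling by total counts 3 were higher and 9 lower, since Eif3k (−0.032) and Eif3g (−0.053) lost their calls and Eif3d gained one. The subunits that rose were Eif3a, the largest and part of the core, from 25774, 26756 and 25899 to 32645, 32476 and 33301 (log2 0.33, SE 0.028), and Eif3c, another core subunit, from 18337, 18228 and 18184 to 20283, 20774 and 20171 (log2 0.16, SE 0.028). Eif3i, a WD-repeat subunit of the peripheral module, fell from 7933, 7944 and 7854 to 3628, 3800 and 3565 (log2 −1.11, SE 0.036). Eif3l followed, from 21213, 20219 and 20366 to 11271, 11431 and 10661 (log2 −0.89, SE 0.035). In each of these 4 genes the groups stood apart. The other falls lay between 0.25 (Eif3k) and 0.76 (Eif3m) on the log2 scale. Eif3d, the subunit with a cap-binding activity of its own, was neither, at −0.04 (SE 0.033), and was called higher at 0.17 with scaling by total counts. Eif3j1 and Eif3j2 are near-identical copies that share 50.6% and 90.8% of their 50-base windows with other genes of the table, so the split of reads between them is uncertain.

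Levels of the eIF3 genes per length of exon, in normalized counts per kb, can be compared among subunits only roughly. The length is the union of all annotated exons of a gene, not that of the transcripts expressed here. Leaving out Eif3j1 and Eif3j2, the highest subunit gene exceeded the lowest by 6.43-fold in DMSO and 5.70-fold in P3FI-90. Eif3e was highest in both groups, at 13946 and 8768 per kb, and Eif3f lowest, at 2170 and 1538 per kb. Eif3i was at 7044 per kb in DMSO, above Eif3a at 5101, and at 3263 per kb in P3FI-90, below Eif3a at 6401. The ratio of Eif3i to Eif3a counts was 0.297 to 0.308 in DMSO and 0.107 to 0.117 in P3FI-90, 2.71-fold lower without overlap.

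The cap-binding machinery showed the largest single fall among the members. Of 13 tested genes for eIF4 factors and poly(A)-binding proteins, 10 fell (76.9%), 1 rose (7.69%) and 2 were neither. Over all genes 39.4% were lower and 39.9% higher. Eif4a1, the main RNA helicase of eIF4F, was at 57367, 56404 and 53874 in DMSO and at 11806, 11976 and 11962 in P3FI-90, which was 4.69-fold lower (log2 −2.23, SE 0.031). The treated libraries differed among themselves by far less than they differed from the controls. Ordered from the lowest log2 fold change, Eif4a1 had rank 137 of the 12288 genes tested. Its paralog Eif4a2, a helicase of the same kind, was at 17167, 18542 and 17101 in DMSO and at 15368, 14898 and 15477 in P3FI-90 (log2 −0.21, SE 0.036), although with scaling by total counts it was at 0.0071 and not called.

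The gap between the 2 helicase genes narrowed. Eif4a1 had 3.04 to 3.34 counts for each count of Eif4a2 in DMSO and 0.768 to 0.804 in P3FI-90, a ratio 4.07-fold lower. Because the transcripts differ in length, the change of the ratio can be read but not its level as a ratio of molecules. Per length of all annotated exons, with the same limit as for eIF3, Eif4a1 was above Eif4a2 in both groups. The values were 31500 against 5506 normalized counts per kb in DMSO and 6716 against 4769 in P3FI-90. For Eif4a1, 28.4% of the 50-base windows also occur elsewhere in the annotated genes, none of them in other genes of the table. Eif4a3, the helicase of the exon junction complex, fell by 0.58 on the log2 scale, and Eif4a3l1, with 8.10, 13.2 and 18.4 normalized counts in DMSO and 9.36, 9.89 and 6.86 in P3FI-90, was neither. Eif4a3 and Eif4a3l1 share 12.8% and 46.6% of their windows with other genes of the table.

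Both eIF4G scaffolds moved, but in opposite directions. Eif4g1 was at 48777, 47579 and 49523 in DMSO and at 27068, 27821 and 26784 in P3FI-90 (log2 −0.84, SE 0.028). Eif4g3, its less abundant paralog, rose from 3478, 3437 and 3637 to 5536, 5871 and 5839 (log2 0.71, SE 0.039). The ratio of Eif4g1 to Eif4g3 counts was 13.8 (SD 0.205, n = 3) in DMSO and 4.74 (SD 0.152, n = 3) in P3FI-90, 2.92-fold lower without overlap. Eif4g2, the scaffold without an eIF4E-binding site, fell by 0.55, and the helicase cofactors Eif4b and Eif4h fell by 0.71 and 0.34 on the log2 scale. Pabpc1, the main cytoplasmic poly(A)-binding protein, fell from 98818, 94216 and 95222 to 66664, 71549 and 65143 (log2 −0.50, SE 0.033). Pabpc4 was neither, at −0.05 (SE 0.036), and was called higher at 0.17 with scaling by total counts.

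Eif4e, the cap-binding protein, fell while one of its inhibitors rose. Eif4e was at 11270, 11450 and 10742 in DMSO and at 6280, 6610 and 6490 in P3FI-90 (log2 −0.79, SE 0.036), and Eif4e2, a cap-binding repressor, fell by 0.64 on the log2 scale. Eif4ebp1, which sequesters eIF4E until mTORC1 phosphorylates it, rose from 5140, 4799 and 5184 to 6195, 6649 and 5714 (log2 0.30, SE 0.051). Every DMSO library was below every P3FI-90 library for Eif4ebp1, and the reverse held for Eif4e. The ratio of Eif4e to Eif4ebp1 counts was 2.07 to 2.39 in DMSO and 0.994 to 1.14 in P3FI-90, 2.12-fold lower. Eif4enif1, a binding protein that takes eIF4E into the nucleus and to processing bodies, rose from 4759, 4895 and 4736 to 5550, 5833 and 5710 (log2 0.25, SE 0.035). Eif4ebp2 fell from 5859, 5492 and 5925 to 4739, 4587 and 5032 (log2 −0.27, SE 0.043), a call that was lost with scaling by total counts (−0.053), and Eif4ebp3, with means of 7.74 and 11.8 normalized counts, was neither.

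**Figure D3:**
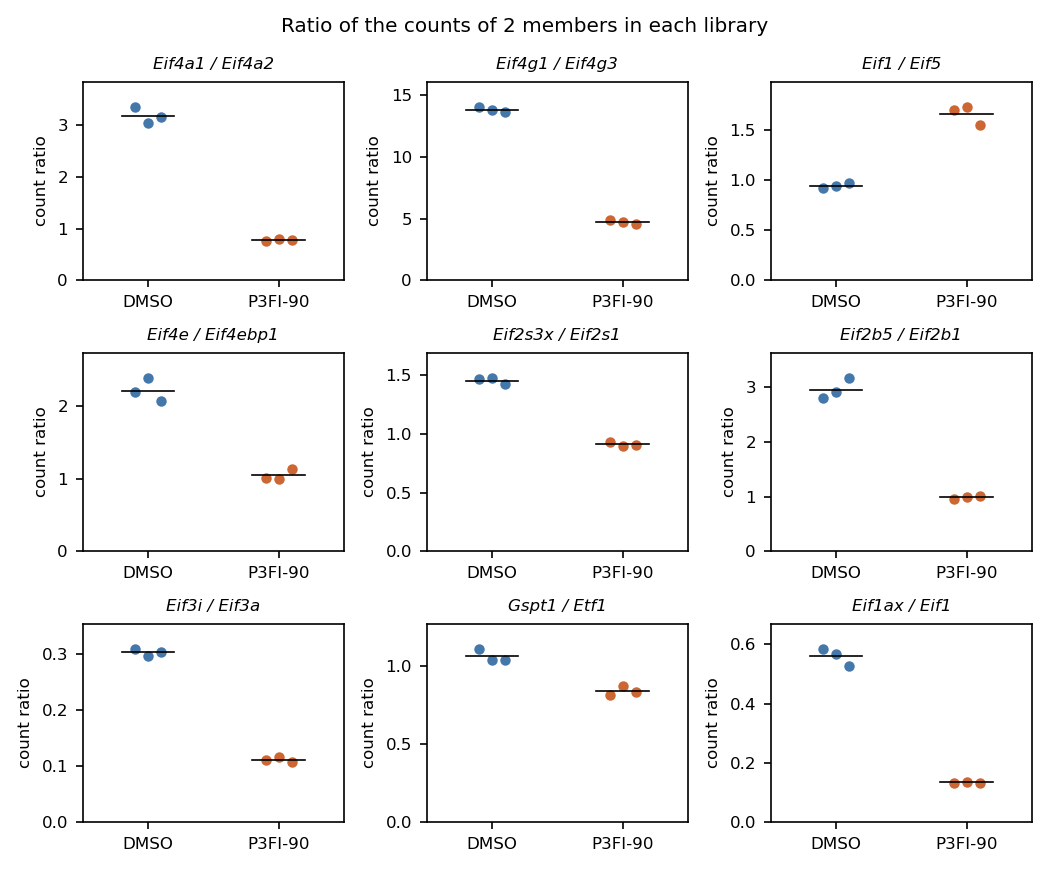
Ratio of the counts of 2 members in each library (y axis, starting at 0), for 9 pairs, with points for the 3 libraries of each group and lines for their means. The groups do not overlap in any of the 9 pairs, which were chosen with earlier results of these data known. Several pairs set a gene that fell against one that rose, so their separation follows from the changes of the single genes. The ratio of Eif1 to Eif5 is higher in P3FI-90, and the other 8 ratios are lower.

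Eif5a, the hypusine-carrying factor that relieves stalled ribosomes and aids termination, fell from 68484, 67060 and 69358 to 48841, 47765 and 47583 (log2 −0.51, SE 0.025). Its paralog Eif5a2 was neither, at 698, 683 and 700 against 659, 691 and 691 (log2 −0.03, SE 0.073), and was called higher at 0.19 with scaling by total counts. Eif6, which keeps large ribosomal subunits from joining too early, rose from 7111, 6837 and 7345 to 9974, 9495 and 9960 (log2 0.47, SE 0.037). Eif5a and Eif6 thus had separate groups in opposite directions, and Eif5a2 had overlapping ones.

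All 5 tested elongation factor genes fell, with a median log2 fold change of −1.03, beside 39.4% of all genes lower. Eef1a1, which encodes the carrier of aminoacyl-tRNAs, was at 474007, 469645 and 467085 in DMSO and at 160504, 164170 and 155336 in P3FI-90, 2.94-fold lower (log2 −1.56, SE 0.021). It was the gene with the most counts in each DMSO library and the next after the top in each P3FI-90 library, and it lost more normalized counts than any other of the 12288 genes tested. Eef2, the translocase, was at 134459, 125318 and 131795 in DMSO and at 64192, 65796 and 61629 in P3FI-90, 2.04-fold lower (log2 −1.03, SE 0.031). Its loss of normalized counts ranked 12 of 12288, and that of Eif4a1 ranked 21. Among the 100 largest losses 7 were members, beside 66 members among the 12288 genes tested. Such ranks depend on abundance as well as on fold change. Ordered from the lowest log2 fold change, Eef1a1 had rank 444 and Eef2 rank 1256.

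The subunits of the exchange factor that reloads eEF1A with GTP fell unequally. Eef1g fell from 43468, 44603 and 44225 to 21183, 21206 and 21171 (log2 −1.06, SE 0.026), and Eef1d fell by 1.02 and Eef1b2 by 0.64 on the log2 scale. None of the 5 had groups that overlapped, a trait of 81.2% of all genes. Of the 50-base windows of Eef1a1, 40.4% also occur in other annotated genes, and of those of Eef1g 44.2%, but 0.916% and 0% in other genes of the table, and where reads from such unlisted copies were placed is not known. Eef1a2, the muscle and nerve form of eEF1A, had 12 counts in the first DMSO library and 0 in the other 5, and was not tested.

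**Figure D4:**
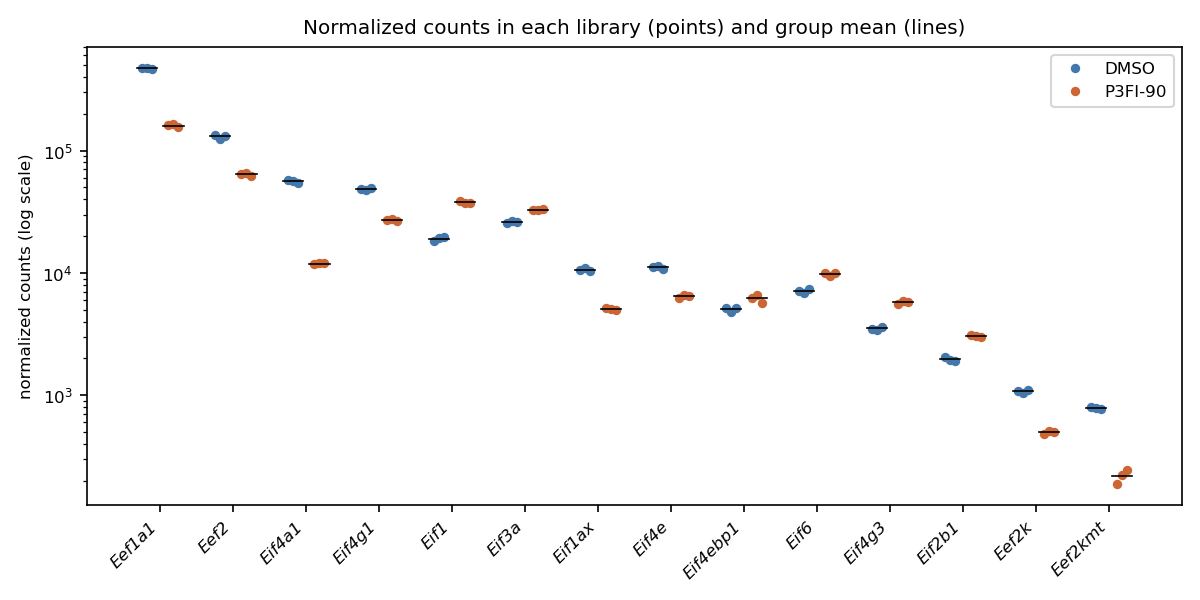
Normalized counts (y axis, log scale) of 14 members in each of 3 DMSO and 3 P3FI-90 libraries, with lines at the group means. The libraries of a group lie close together, and for each of the 14 genes the groups are apart, with Eif1, Eif3a, Eif4ebp1, Eif6, Eif4g3 and Eif2b1 higher and the other 8 lower in P3FI-90.

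Of the 6 tested genes for enzymes that modify elongation factors, 5 fell and 1 was neither, beside 39.4% of all genes lower. Eef2k, the kinase that inactivates eEF2, fell from 1092, 1048 and 1102 to 485, 512 and 501 (log2 −1.11, SE 0.070). Eef2kmt, a lysine methyltransferase of eEF2, fell from 805, 792 and 780 to 189, 224 and 244, which was 3.62-fold lower (log2 −1.86, SE 0.10). Eef1akmt4, a methyltransferase of eEF1A, fell from 573, 573 and 577 to 153, 185 and 198 (log2 −1.68, SE 0.12). In each of the 3 genes the highest treated library lay below the lowest control. Eef2kmt shares 16.6% of its windows with other genes of the table, its exons overlapping Alg1 on the opposite strand, and Eef1akmt4 shares 28.9%, overlapping Eef1ece2 and Alg3. Eef1akmt2 fell by 0.82 and Eef1akmt1 by 0.30 on the log2 scale, the latter not called with scaling by total counts (−0.083), and Eef1akmt3, at 6.02 to 38.4 normalized counts, was neither (log2 0.65, SE 0.48).

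Both termination factors fell, to different degrees, beside 39.4% of all genes lower. Etf1, the gene for eRF1, which reads the stop codon, was at 12816, 13786 and 13463 in DMSO and at 11033, 10498 and 10874 in P3FI-90 (log2 −0.31, SE 0.036). Gspt1, the gene for its GTPase partner eRF3a, fell from 14187, 14337 and 14027 to 9031, 9149 and 9085 (log2 −0.64, SE 0.030). The ratio of Gspt1 to Etf1 counts was 1.04 to 1.11 in DMSO and 0.819 to 0.871 in P3FI-90, 1.26-fold lower.

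Members were also set against each other per length of all annotated exons, which can differ from the transcripts expressed, so the places below are approximate. Eef1a1 was the highest of the 66 members in both groups, at 262122 normalized counts per kb in DMSO and 89188 in P3FI-90. Eef2 came next in DMSO at 42254 per kb (SD 1522, n = 3), then Pabpc1 at 34109 (SD 859) and Eif4a1 at 31500 (SD 1017). The libraries of neighbours in this order did not overlap. In P3FI-90 the place after Eef1a1 was taken by Eif1, which was at 14442 per kb in DMSO and 28533 in P3FI-90 (SD 707), followed by Pabpc1 at 24063 (SD 1188), Eef2 at 20677 (SD 680) and Eif5a at 20220 (SD 286). The libraries of Eef2 and Eif5a overlapped there, and those of the places above them did not. Eif4a1 was at 6716 per kb in P3FI-90, so it went from place 4 to place 10 among the members.

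**Figure D5:**
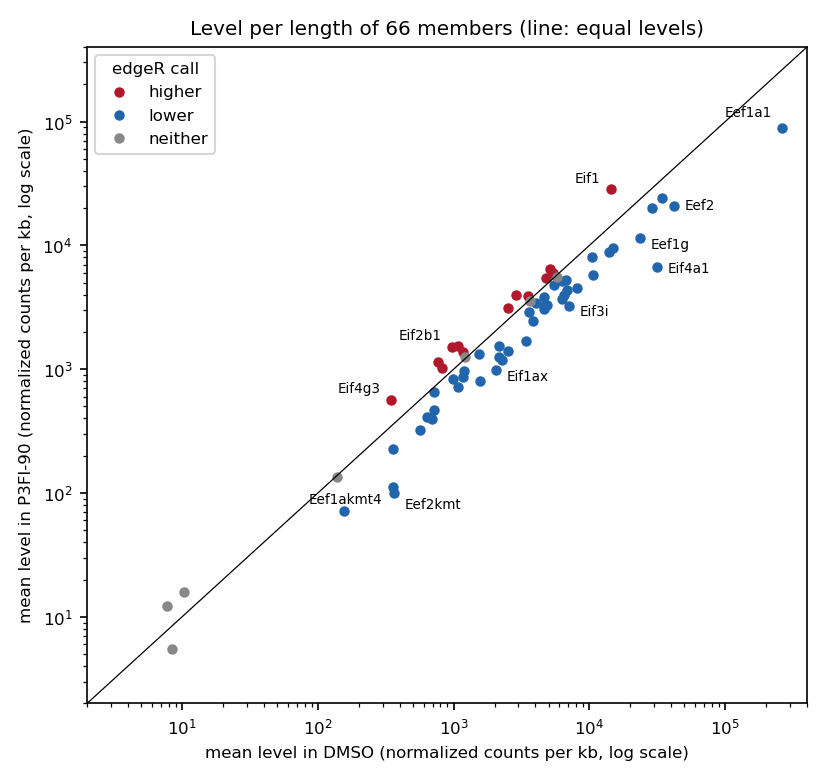
Mean level per length of the 66 tested members in DMSO (x axis) and P3FI-90 (y axis). Units are normalized counts per kb of all annotated exons on log scales, coloured by call, with a line of equal levels. Most members lie below the line. Eef1a1, Eef2, Eif4a1 and Eef2kmt are well below it, and Eif1, Eif4g3 and Eif2b1 above it.

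Of the 22 members that were not tested, 16 were numbered copies of Eif1ad, none with more than 18 counts in a library, and 4 members were at 0 in every library. Eif1ad itself, which encodes a nuclear protein with an eIF1A-like domain, rose from 1971, 1923 and 2005 to 2853, 2923 and 2961 (log2 0.57, SE 0.047), without overlap, and 13.2% of its windows are shared with Banf1 on the opposite strand. Eif4e1b and Eif4e3, relatives of Eif4e, were at 0 throughout. A count of 0 allows up to 3 counts, or 0.0802 to 0.0958 CPM in these libraries, for counting error only. Eif2s3y, the Y-linked relative of Eif2s3x, had 8 counts in the first DMSO library and 0 in the others, and Eif4a3l2 had 1 to 29 counts.

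Outside the members, 58 rows of genes that regulate or assist translation were listed by role, of which 57 were tested, with 26 higher (45.6%), 21 lower (36.8%) and 10 neither, beside 39.9% and 39.4% of all genes, and a median log2 fold change of 0.10. With scaling by total counts, 33 were higher and 14 lower. The same shares over all genes stand beside the counts of each list below. Among 6 eIF2α kinase and phosphatase genes, 4 rose, 1 fell and 1 was neither. Ppp1r15a, the stress-induced subunit that directs the dephosphorylation of eIF2α, was at 377, 316 and 331 in DMSO and at 6039, 6078 and 5724 in P3FI-90 (log2 4.12, SE 0.064), the largest rise in this list. Eif2ak3, the kinase PERK of the endoplasmic reticulum, rose by 1.39 on the log2 scale, and Eif2ak4, the amino acid sensor GCN2, fell by 0.55.

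Of 14 genes of mTORC1 and MNK control, 6 rose, 5 fell and 3 were neither. Tsc1, a brake on mTORC1, had the largest rise (log2 1.30, SE 0.052). In the same list Mtor itself rose by 0.41 and Deptor fell by 1.46 on the log2 scale, and the activity of mTORC1 was not tested. Pdcd4, the inhibitor of eIF4A, had the largest fall, from 420, 442 and 446 to 105, 83.6 and 78.4 (log2 −2.29, SE 0.14). Both Pdcd4 and its target Eif4a1 were thus lower in every P3FI-90 library. In ribosome rescue and recycling 6 of 8 tested genes rose, led by Zfp598, a sensor of collided ribosomes (log2 1.14, SE 0.045), while Nemf fell by 0.24, a call lost with scaling by total counts (−0.025).

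In the remaining lists the directions were mixed, and with scaling by total counts Paip2, Guf1, Dph1, Dph3 and Dph6 were no longer called lower. Among 7 partners of poly(A)-binding protein and helicases, 1 rose (Dhx29, log2 0.37) and 3 fell, most of all Pabpn1, the nuclear poly(A)-binding protein (log2 −1.11). Of 10 mitochondrial translation factor genes 5 rose and 5 fell, between Mtrf1 at −0.76 and Mtrf1l at 0.56. Of 9 genes for the enzymes that make hypusine on eIF5A and diphthamide on eEF2, 3 rose and 4 fell, between Dph7 at −0.66 and Dph5 at 0.31. Of 4 further genes (Eefsec, Secisbp2, Eef1e1 and Hbs1l) 2 rose and 2 fell. They ranged from Eefsec, the selenocysteine elongation factor, at −0.51 to Hbs1l, which also belongs to the rescue list, at 0.66. The 5 mitochondrial falls included Tufm and Tsfm, the counterparts of eEF1A and its exchange factor, at −0.69 and −0.75.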

How the data were processed

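Total RNA of 4T1 cells was made into mRNA libraries with a kit and sequenced on an Illumina NovaSeq instrument. The authors deposited read counts per gene, whole numbers without normalization. The submitters' processing notes name CASAVA, HISAT2, StringTie and GRCm39. The counting tool, annotation and strandedness are not given in the sources used here. The 285 unnamed rows of assembled transcripts, 0.483% to 0.556% of a library, were left out.

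Counts were analysed in R 4.3.3. Genes that passed filterByExpr were normalized by TMM and compared with the quasi-likelihood test of edgeR 4.0.16, with treatment as the only term, where the study used limma. The SE of a log2 fold change is not an output of that test. It was derived as the absolute log2 fold change divided by the square root of the test's F statistic. The common biological coefficient of variation was 0.0648. The members, role lists, pairs and motifs were chosen with earlier results of these data known, and Eif1a, Eif1ad and its copies and Eef1ece2 were given a role after the table was seen. Named with values per library were a core set of factors and, in each role list, the 2 largest rises and 2 largest falls among called members. Members that missed the threshold, and the extremes of each further list, were also named. Sequence shared between genes was measured in 50-base windows of GENCODE M21 transcripts. Exon lengths were the union of all exons of a gene in the basic annotation of the same release. These and the RefSeq promoters are on GRCm38, not the build of the counts, and no position was carried between them.

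As alternatives, libraries were scaled by DESeq2's size factors, by their totals or by upper quartiles. The filter was dropped or raised to a minimum of 10 counts per library. DESeq2 1.42.0 and limma 3.58.1, the latter with voom or on log2(CPM + 1), replaced the test. A block for the replicate number was added, and single libraries were omitted.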

Additional observations from a re-analysis of the deposited data

How the results depend on the processing

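When single libraries were omitted, 13 to 14 members were higher and 45 to 46 lower, the members' median log2 fold change was −0.52 to −0.48, and 9445 to 9708 genes were called. Where 14 were higher, no member tested in the main fit gained a call. The added member had thus not passed the filter with all libraries present. The median of the members, −0.51, was −0.29 with total counts. Without a filter it was −0.57, beside 0.099 over all genes in that setting. That median also took in low-count members that were otherwise not tested, so it covers a different set of genes. With total counts alone, 5 members changed sign, namely Eif2d (0.095), Pabpc4 (0.17), Eif5a2 (0.19), Eif3d (0.17) and Eif4a2 (0.0071). A call was lost by 8 members (Eif2d, Eif4a2, Mcts1, Eef1akmt1, Eif2s2, Eif3k, Eif3g and Eif4ebp2) and gained by 4 (Pabpc4, Eif5a2, Eif3d and Eif2b2), all 4 as higher. Of all calls 49.7% were lower with TMM and 37.1% with total counts. Upper quartiles called Pabpc4 and Eif3d lower. Eif2d lost its call with at least 10 counts in every library (log2 −0.10), and without the first DMSO library (−0.080) or the first or the third P3FI-90 library (both −0.12), and Mcts1 without the third DMSO library (−0.15). With the replicate number as a block, 13 members were higher, 45 lower and 9524 genes called, Eif2d being the member lost. Deviations of equally numbered libraries correlated by −0.049, −0.031 and −0.027, so the numbers were not read as pairs. No member changed its sign or its call with DESeq2's size factors or test, limma-voom, limma on log2(CPM + 1), or the removal of the filter. Depth limits the values of Eif4ebp3, Eif4a3l1 and Eef1akmt3, whose counts were low in all libraries and which that minimum of 10 counts left untested. Shared sequence limits them too. Eif4ebp3 shares 65.5% of its 50-base windows with Maskbp3, whose exons overlap it on the same strand.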
